A study of Homo sapiens with 6 samples.

Results

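The 10 enzymes described here make serine, split it to glycine and carry the released carbon on folate in human cells. They were listed by symbol, and all 10 were found among the 60664 genes of the count files. PHGDH, PSAT1 and PSPH form the cytosolic route of serine synthesis. SHMT1 and MTHFD1 stand for the cytosolic arm of folate metabolism, and SHMT2, MTHFD2, MTHFD2L, MTHFD1L and ALDH1L2 for the mitochondrial arm. The libraries are polyadenylated RNA of D283 Med, a MYC-amplified human line of Group 3 medulloblastoma, a childhood tumour of the cerebellum. The knockdown group (labelled KD, 3 libraries) was transfected with an LNA GapmeR against the long non-coding RNA lncMB3, and the control group (labelled SCR, 3 libraries) was transfected with a scrambled GapmeR. A GapmeR is an antisense oligonucleotide that directs RNase H to a transcript. Both groups were therefore transfected cells of the same line, and no untransfected cells were analysed here.

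Serine is made from the glycolytic intermediate 3-phosphoglycerate by an oxidation (PHGDH), a transamination (PSAT1) and a dephosphorylation (PSPH). Serine hydroxymethyltransferases then move a carbon unit from serine to tetrahydrofolate, SHMT2 in mitochondria and SHMT1 in the cytosol. In mitochondria the unit is oxidised by MTHFD2 or MTHFD2L and released as formate by MTHFD1L, or burnt to carbon dioxide by ALDH1L2. In the cytosol the trifunctional MTHFD1 takes up formate and passes the unit to purine, thymidylate and methionine synthesis. PHGDH, PSAT1, SHMT2 and MTHFD2 are known targets of ATF4, the transcription factor of the amino acid response, and MYC is also known to raise several of these enzymes.

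Total counts were 7765826 to 19989654 in the knockdown libraries and 17072573 to 20035834 in the controls, so low genes are least precise in knockdown library 1. Separate cultures are not mentioned in the labels, and the p-values therefore reflect the spread among these libraries alone, which may be technical. The lncMB3 transcript itself was not analysed here because the sources used here give no identifier for it, and directions are drawn from the group labels. Loss of lncMB3 and any other effect of this GapmeR cannot be told apart. Markers of the Group 3 and photoreceptor lineage were present, led by OTX2, and summed to 1538 to 1603 counts scaled to library size (CPM) in the knockdown libraries, against 1741 to 1867 CPM in the controls. Of these 8 markers 6 fell and 1 rose, where 15.9% of all tested genes fell and 15.9% rose. Of 20 markers of other cell types, COL3A1 (mesenchymal), CDH5 (endothelial), CD3E (immune) and KRT14 (epithelial) had no count in any library, and the others had some. The 3 endothelial markers, mostly VWF, summed to 0.417 to 0.730 CPM in the knockdown libraries and 0.782 to 0.937 CPM in the controls. The 3 immune markers, mostly CD68, summed to 0.650 to 2.19 CPM in the knockdown libraries and 1.17 to 1.81 CPM in the controls. The 3 epithelial markers summed to 0.0521 to 0.130 CPM in the knockdown libraries and 0.147 to 0.351 CPM in the controls. The 6 glial markers summed to 4.03 to 4.54 CPM in the knockdown libraries and 4.57 to 5.92 CPM in the controls. The 5 mesenchymal markers, nearly all COL1A1 and PDGFRB, summed to 27.0 to 32.4 CPM in the knockdown libraries and 34.0 to 38.1 CPM in the controls. The part of these shifts in the results was not tested. In bulk RNA, fewer cells of a type and less RNA per cell cannot be told apart.

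The sequences that carry the comparison of the enzymes' promoters are given first. RefSeq promoter windows (GRCh38.p14, 250 bases before to 50 after a transcript start) were at hand for 7 of the 10 enzymes, 11 windows in all. PSPH, SHMT2 and ALDH1L2 had no window and were not searched. They were searched on both strands for TGATGNAA, the core of the C/EBP-ATF response element that ATF4 binds, for its form TGATGCAA, which is contained in it, and for CACGTG, the E-box bound by MYC. Of 35116 windows of 300 bases, 3.62% hold TGATGNAA, 0.866% TGATGCAA and 7.26% CACGTG. None of these motifs was in the windows of PHGDH, PSAT1, MTHFD2, SHMT1 or MTHFD2L, which says only that these letters are not in these windows. MTHFD1L held TGATGCAA in 3 of its 4 windows, and MTHFD1L and MTHFD1 held the E-box. The window upstream of PSAT1, the enzyme with the largest fall of the 9 tested, is shown up to its start (chr9:78296875-78297124, plus strand), a stretch that no annotated exon overlaps. For MTHFD1L (chr6:150866346-150866375, plus strand) and MTHFD1 (chr14:64388323-64388352, plus strand) 30 bases around the match are shown, with the match in capitals. The match of MTHFD1L begins 129 and 90 bases before a pair of its annotated starts and at position 25 after another, and that of MTHFD1 begins 15 bases before its start.
PSAT1: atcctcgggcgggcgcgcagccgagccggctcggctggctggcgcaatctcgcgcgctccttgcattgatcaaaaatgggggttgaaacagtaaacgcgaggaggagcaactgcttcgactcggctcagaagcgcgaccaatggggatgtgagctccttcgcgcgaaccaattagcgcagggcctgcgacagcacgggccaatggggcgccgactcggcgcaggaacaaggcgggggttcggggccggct
MTHFD1L: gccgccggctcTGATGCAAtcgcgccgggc
MTHFD1: tggccagtccctaagCACGTGggttgggtt

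The comparison asked which of these enzymes change when lncMB3 is targeted. All 3 serine synthesis enzymes fell, by 1.59-fold to 1.72-fold, and in the mitochondrial arm MTHFD2 fell 1.38-fold and SHMT2 1.19-fold. Neither cytosolic enzyme passed the test, and no enzyme rose. The test was edgeR's quasi-likelihood F test over 14673 genes with Benjamini-Hochberg adjustment and a threshold of 0.05 on the adjusted p. Of the 9 enzymes tested, 5 were lower and 0 higher, whereas 15.9% of all tested genes were lower and 15.9% higher. At an unadjusted p under 0.05, 6 were lower and 0 higher, but the share of all tested genes at that threshold is not given here. DESeq2 and limma-voom each called 5 enzymes lower and 0 higher. Over all genes and both directions they called 3917 and 4628 genes, and edgeR 4657. DESeq2 started from all genes with any count, not from the 14673 genes. Shares of all genes by direction are not given here for DESeq2 or limma-voom. The median log2 change (knockdown over control) was -0.25 over these 9 enzymes and 0.000282 over all tested genes. ALDH1L2 was too low to test. In 6 enzymes all knockdown libraries lay below all controls, and in 0 above. Of all tested genes 46% had groups that did not overlap, 23.1% with the knockdown lower and 22.9% with it higher.

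**Figure D1:**
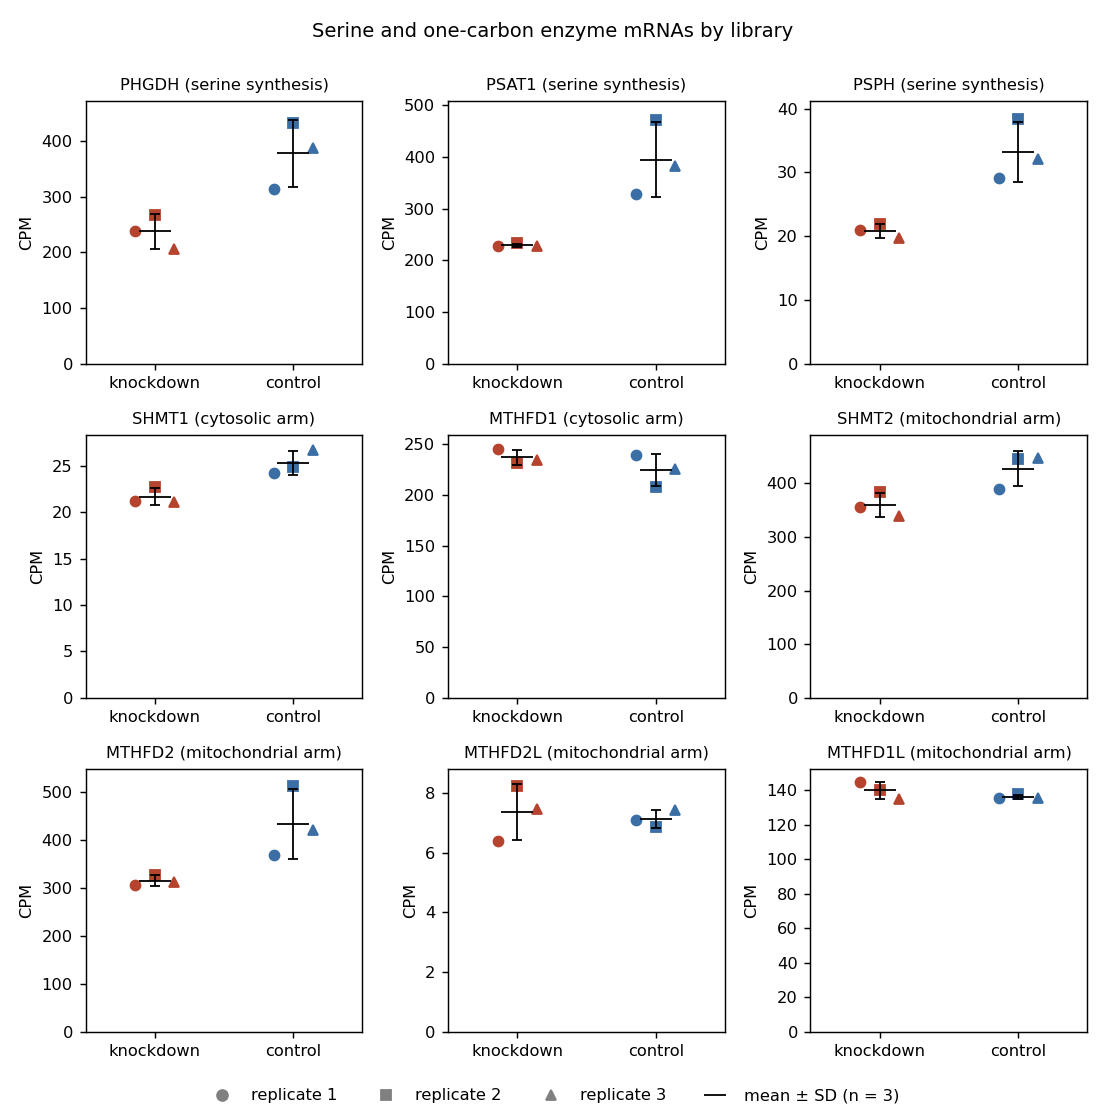
CPM (scaled by TMM) of the 9 tested enzymes in each library, with knockdown on the left and control on the right of each panel; symbols mark the replicate, and bars the mean ± SD of 3 libraries. The knockdown libraries lie below every control for PHGDH, PSAT1, PSPH, SHMT1, SHMT2 and MTHFD2, and the groups overlap for MTHFD1, MTHFD2L and MTHFD1L.

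Serine synthesis showed the largest falls. PHGDH, which commits 3-phosphoglycerate to serine (ENSG00000092621, chromosome 1, 119648411 to 119744226, plus strand), was at 239, 268 and 206 CPM in knockdown libraries 1 to 3, against 313, 433 and 387 CPM in controls 1 to 3. Every knockdown library was below every control, and control 1 was the lowest control. The means were 237 ± 30.8 CPM in the knockdown and 378 ± 60.2 CPM in controls (SD, n = 3 each), a log2 change of -0.67 ± 0.12 (SE) with an edgeR adjusted p of 0.00107. PSAT1, the aminotransferase (ENSG00000135069, chromosome 9, 78297143 to 78330093, plus strand), was at 228, 233 and 228 CPM in knockdown libraries 1 to 3, against 328, 472 and 383 CPM in controls 1 to 3. The knockdown libraries were almost equal to each other, whereas the controls were spread widely, with control 2 the highest. The means were 229 ± 2.78 CPM in the knockdown and 394 ± 72.7 CPM in controls (SD, n = 3 each), a log2 change of -0.78 ± 0.11 (edgeR adjusted p = 0.000274). PSPH, the phosphatase that releases serine (ENSG00000146733, chromosome 7, 56011051 to 56051604, minus strand), was at 20.9, 21.9 and 19.7 CPM in knockdown libraries 1 to 3, against 29.2, 38.3 and 32.2 CPM in controls 1 to 3. The order of the controls was again 1, 3, 2 from low to high. Its means were 20.8 ± 1.13 CPM in the knockdown and 33.2 ± 4.68 CPM in controls (SD, n = 3 each), with a log2 change of -0.68 ± 0.11 (edgeR adjusted p = 0.000679). The 3 transcripts together took 487, 522 and 453 CPM in knockdown libraries 1 to 3, against 670, 943 and 802 CPM in controls 1 to 3. Each of these calls held when any single library was left out.

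In the mitochondrial arm, SHMT2 and MTHFD2 fell, and MTHFD2L and MTHFD1L did not pass the test. SHMT2, the mitochondrial serine hydroxymethyltransferase (ENSG00000182199, chromosome 12, 57229327 to 57234935, plus strand), was at 356, 384 and 339 CPM in knockdown libraries 1 to 3, against 389, 446 and 447 CPM in controls 1 to 3. The groups were separated only by a small step, with knockdown library 2 just under control 1. The means were 360 ± 22.8 CPM in the knockdown and 428 ± 33.4 CPM in controls (SD, n = 3 each), a log2 change of -0.25 ± 0.09 (edgeR adjusted p = 0.0437). That call was lost without any of 4 libraries, with an adjusted p of 0.128 without knockdown library 1, 0.15 without knockdown library 3, 0.172 without control 2 and 0.144 without control 3. NDUFA4L2 lies across from SHMT2 on the other strand and fell too, but held only 1.04 CPM in the knockdown and 6.55 CPM in controls on average, and the sources used here do not state whether reads were counted by strand.

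MTHFD2, the mitochondrial dehydrogenase and cyclohydrolase (ENSG00000065911, chromosome 2, 74198562 to 74217565, plus strand), was at 305, 327 and 312 CPM in knockdown libraries 1 to 3, against 367, 511 and 420 CPM in controls 1 to 3. The controls kept the order 1, 3, 2 from low to high that they had for the serine synthesis enzymes. For SHMT2 the order was 1, 2, 3, with controls 2 and 3 close. The means were 315 ± 10.9 CPM in the knockdown and 433 ± 72.8 CPM in controls (SD, n = 3 each), with a log2 change of -0.46 ± 0.11 (edgeR adjusted p = 0.00533). Without control 2, the highest library, the log2 change was -0.32 and the edgeR adjusted p 0.0444. SLC4A5, on the other strand across MTHFD2, averaged 3.43 CPM in the knockdown and 5.70 CPM in controls.

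MTHFD2L, a paralog with the same activities as MTHFD2 (ENSG00000163738, chromosome 4, 74114174 to 74303099, plus strand), was the lowest of the 9 tested enzymes. It was at 6.37, 8.24 and 7.45 CPM in knockdown libraries 1 to 3, against 7.08, 6.85 and 7.43 CPM in controls 1 to 3. The knockdown libraries spanned the controls, and the log2 change was 0.07 ± 0.14 (edgeR adjusted p = 0.726). MTHFD1L, the formate-releasing synthetase of mitochondria (ENSG00000120254, chromosome 6, 150865549 to 151101887, plus strand), was at 145, 140 and 135 CPM in knockdown libraries 1 to 3, against 136, 138 and 135 CPM in controls 1 to 3. All 6 libraries were within a narrow band, and the log2 change was 0.04 ± 0.08 (edgeR adjusted p = 0.748). The sign of this small value turned with upper-quartile scaling (-0.021). Of the 7 enzymes with a promoter window, only MTHFD1L held TGATGCAA, the sequence printed above. SHMT2, PSPH and ALDH1L2 had no window to search.

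ALDH1L2, which oxidises the folate-bound unit to carbon dioxide in mitochondria (ENSG00000136010, chromosome 12, 105019784 to 105084577, minus strand), had 0, 2 and 2 counts in knockdown libraries 1 to 3, against 0, 1 and 1 in controls 1 to 3. A count of 0 allows up to 3 counts, or 0.386 CPM in knockdown library 1 and 0.176 CPM in control 1, by counting error only. Its transcript was thus at or under the limit of detection at this depth in all libraries, and no fold is given. Its span also overlaps that of NOPCHAP1 on the other strand. The cytosolic counterpart ALDH1L1 had 1 count in knockdown library 1 and none in the other libraries.

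The cytosolic arm gave no called enzyme by edgeR, DESeq2 or limma-voom, and 1 of the 2 had an unadjusted p under 0.05. SHMT1, the cytosolic serine hydroxymethyltransferase (ENSG00000176974, chromosome 17, 18327860 to 18363563, minus strand), was at 21.2, 22.7 and 21.1 CPM in knockdown libraries 1 to 3, against 24.2, 24.9 and 26.7 CPM in controls 1 to 3. The knockdown libraries were below every control, but by little. The log2 change was -0.22 ± 0.10 (edgeR adjusted p = 0.0943), and with upper-quartile scaling the adjusted p was 0.0428. SMCR8, whose span overlaps that of SHMT1 on the other strand, averaged 31.1 CPM in the knockdown and 28.4 CPM in controls. That is more than SHMT1 itself, and the length of the overlap was not measured, so the value of SHMT1 is uncertain. MTHFD1, the trifunctional enzyme of the cytosol (ENSG00000100714, chromosome 14, 64388031 to 64463457, plus strand) was at 245, 232 and 234 CPM in knockdown libraries 1 to 3, against 240, 208 and 225 CPM in controls 1 to 3. The groups overlapped, and the log2 change was 0.08 ± 0.08 (edgeR adjusted p = 0.498). ZBTB25, on the other strand across MTHFD1, averaged 13.9 CPM in the knockdown and 18.9 CPM in controls.

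**Figure D2:**
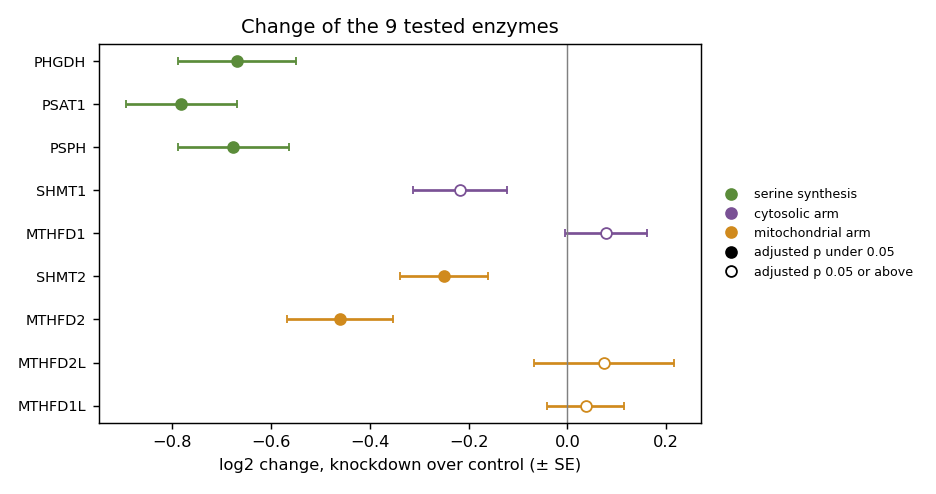
Log2 change (knockdown over control) of the 9 tested enzymes, coloured by arm, with bars of 1 SE; filled points have an edgeR adjusted p under 0.05. The 3 serine synthesis enzymes lie between -0.78 and -0.67, MTHFD2 at -0.46, SHMT2 at -0.25 and SHMT1 at -0.22, while MTHFD1, MTHFD2L and MTHFD1L lie at 0.08 or below and above 0.

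The arms were compared through the ratio of a mitochondrial to a cytosolic isozyme within each library, where library size cancels apart from the prior count. For MTHFD2 over MTHFD1 the log2 ratio was 0.32, 0.49 and 0.41 in knockdown libraries 1 to 3, against 0.62, 1.30 and 0.90 in controls 1 to 3. All knockdown libraries were below all controls, with a difference of -0.53 (knockdown minus control). A 2-sided exact permutation test gave p = 0.1, the smallest that 3 against 3 libraries allow, and 0.4 after Benjamini-Hochberg adjustment over 4 ratios. Without control 2 the difference was -0.35, over 1.5 times smaller. For SHMT2 over SHMT1 the log2 ratio was 4.06, 4.07 and 3.997 in knockdown libraries 1 to 3, against 3.998, 4.16 and 4.06 in controls 1 to 3. The groups overlapped, with a difference of -0.03 (exact permutation p = 0.8, adjusted 0.8), so a shift between the SHMT isozymes was not detectable in these libraries. The ratios of MTHFD1L and of MTHFD2L to MTHFD1 overlapped likewise, each with a difference of -0.04 (exact permutation p = 0.8, adjusted 0.8). ALDH1L2 over ALDH1L1 was left out because both were at the limit of detection.

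**Figure D3:**
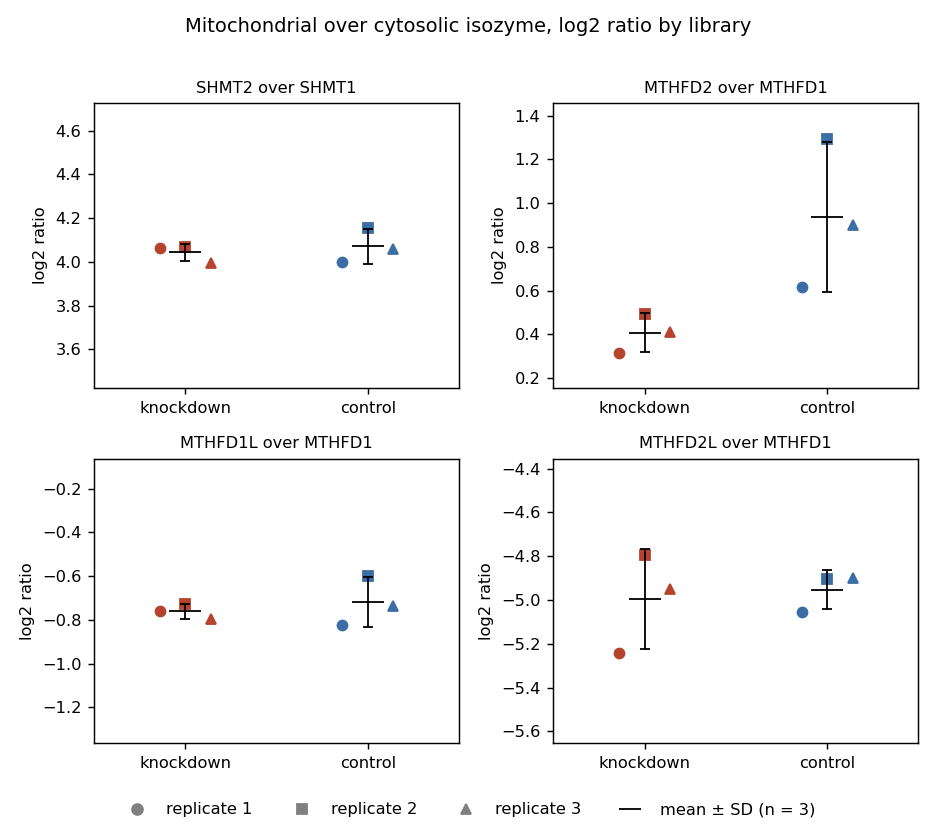
Log2 ratio of a mitochondrial to a cytosolic enzyme in each library (prior count 2), knockdown on the left and control on the right, with the mean ± SD of 3 libraries; every panel spans the same range. The groups are apart for MTHFD2 over MTHFD1, with a difference of -0.53, and overlap in the other ratios.

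As a mean of log2 CPM, the 4 tested mitochondrial enzymes stood at 6.65, 6.78 and 6.67 in knockdown libraries 1 to 3, against 6.76, 6.93 and 6.88 in controls 1 to 3. The 2 cytosolic enzymes stood at 6.18, 6.19 and 6.14 in knockdown libraries 1 to 3, against 6.26, 6.17 and 6.28 in controls 1 to 3. The difference of mitochondrial minus cytosolic means was 0.53 ± 0.06 in the knockdown and 0.62 ± 0.12 in controls (SD, n = 3 each). This change of -0.09 was smaller than the spread between controls, and leaving out 1 library gave -0.14 (without control 1) to -0.019 (without control 2), with -0.06 without knockdown library 1. The mean over the 3 serine synthesis enzymes was 6.71 ± 0.09 in the knockdown and 7.40 ± 0.23 in controls (SD, n = 3 each).

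Levels of different enzymes can be compared only per length of transcript. Per kb of annotated exon, the CPM of PSAT1 was 105 ± 1.27 in the knockdown and 180 ± 33.2 in controls, the highest of the 9 in both groups (SD, n = 3 each). In the knockdown it was followed by SHMT2 at 74.3 ± 4.71 and MTHFD2 at 64.6 ± 2.24 CPM per kb. In controls SHMT2 and MTHFD2 did not differ beyond their spread, at 88.4 ± 6.91 and 88.9 ± 14.95 CPM per kb. MTHFD1L, PHGDH and MTHFD1 were close in the knockdown at 27.9 ± 0.96, 25.8 ± 3.34 and 25.3 ± 0.77 CPM per kb. In controls PHGDH, at 41.0 ± 6.53 CPM per kb, stood above MTHFD1L (27.1 ± 0.25) and MTHFD1 (23.9 ± 1.67). PSPH came next, at 7.54 ± 0.41 CPM per kb in the knockdown and 12.03 ± 1.70 in controls. SHMT1 followed at 2.98 ± 0.13 CPM per kb in the knockdown and 3.47 ± 0.18 in controls, and MTHFD2L was lowest at 0.749 ± 0.10 in the knockdown and 0.725 ± 0.03 in controls. These places depend on the length used, and the levels of PHGDH, SHMT1 and MTHFD2L move by over 1.5 times with it. Per kb of its longest annotated transcript PHGDH was at 74.7 ± 9.68 CPM in the knockdown and 119 ± 18.9 CPM in controls, since its union of exons is 9217 bases and its longest transcript 3180. By that length SHMT2, at 105 ± 6.67 CPM per kb, did not differ from PSAT1 beyond its spread in the knockdown, and in controls SHMT2, at 125 ± 9.78 CPM per kb, stood above MTHFD2 at 97.1 ± 16.3. SHMT1 was then at 7.87 ± 0.33 CPM per kb in the knockdown and 9.17 ± 0.47 in controls, and MTHFD2L at 2.31 ± 0.29 in the knockdown and 2.24 ± 0.09 in controls, still the lowest.

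Pseudogenes of the enzymes held almost no counts of their own. Of 14 annotated pseudogenes of the enzymes, 4 had any count, and the highest was 1 in a library. RSEM shares reads among similar genes, so this does not show how many reads matched both an enzyme and a pseudogene.

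The other genes of the pathway did not move as a block. Of 43 listed genes 37 were tested, of which 6 were lower and 5 higher, against the 31.7% of all tested genes called in either direction. Their median log2 change was 0.03. Without control 3 the count of lower genes was 3, and without control 1 the count of higher genes was 10. Of 9 tested transport genes 3 fell and 2 rose, where 15.9% of all tested genes fell and 15.9% rose. FOLR1, the folate receptor alpha, was at 10.4, 10.2 and 9.17 CPM in knockdown libraries 1 to 3, against 17.2, 23.9 and 24.3 CPM in controls 1 to 3. Every knockdown library was far below every control, a 2.21-fold fall (log2 change -1.15 ± 0.14, edgeR adjusted p = 0.000108). SLC46A1, the proton-coupled folate transporter, fell 1.23-fold (edgeR adjusted p = 0.0142), a call lost without knockdown library 3 (0.0508) or control 3 (0.0682). Both genes that rose encode folate carriers. SLC19A1, the reduced folate carrier, was at 66.2, 63.5 and 59.9 CPM in knockdown libraries 1 to 3, against 50.1, 48.4 and 47.4 CPM in controls 1 to 3. The groups were well apart, with a 1.30-fold rise (edgeR adjusted p = 0.00397). SLC25A32, which brings folate into mitochondria, averaged 89.3 ± 7.14 CPM in the knockdown and 63.1 ± 4.28 CPM in controls (SD, n = 3 each), a 1.41-fold rise (edgeR adjusted p = 0.00117). Its span overlaps DCAF13 on the other strand, which is more abundant and rose too, so the value is uncertain. SFXN1, a mitochondrial serine transporter, had a log2 change of 0.05 ± 0.09 (edgeR adjusted p = 0.691), and its relative SFXN3 fell 1.33-fold (edgeR adjusted p = 0.00989, but 0.0506 without knockdown library 3 and 0.0514 without control 3).

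Among the folate-using enzymes of the cytosol, 2 of 8 tested rose and 0 fell, near the 15.9% of all tested genes called in each direction. MTRR, which reactivates methionine synthase, was at 46.6, 42.1 and 51.4 CPM in knockdown libraries 1 to 3, against 31.5, 25.7 and 25.9 CPM in controls 1 to 3. The groups were clearly apart, a 1.69-fold rise (edgeR adjusted p = 0.000258). FASTKD3, its neighbour on the other strand, averaged 20.5 CPM in the knockdown and 11.5 CPM in controls and rose as well, so reads of the 2 genes may be mixed. GART, a purine synthesis enzyme that consumes formyl folate, rose 1.28-fold (edgeR adjusted p = 0.00574), but SON, on the other strand, is more abundant and rose too, so the value is uncertain. TYMS, the thymidylate synthase, had a log2 change of -0.05 ± 0.08 (edgeR adjusted p = 0.62).

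In the mitochondrial and glycine cleavage group, 1 of 6 tested rose and 1 fell, again near the 15.9% of all tested genes called in each direction. DLD, the lipoamide dehydrogenase that glycine cleavage shares with other complexes, rose 1.22-fold (edgeR adjusted p = 0.0427), a call lost without any of knockdown libraries 1 to 3 or control 3 (0.0785, 0.085, 0.114 and 0.205 in that order) and with upper-quartile scaling (0.0926). LAMB1, on the other strand, is more abundant than DLD, so the value of DLD is uncertain. Unlike DLD, LAMB1 fell, from 115.9 CPM in controls to 89.7 CPM in the knockdown on average. DHFR2 fell 1.34-fold (edgeR adjusted p = 0.0396). That call was lost without knockdown libraries 1 or 2 (0.0863 and 0.104), without controls 2 or 3 (0.123 and 0.096), with DESeq2 (0.151) and with no low-count filter (0.0544). NSUN3, on the other strand, averaged 7.67 CPM in the knockdown and 7.48 CPM in controls, above DHFR2 itself, so its value is uncertain. GLDC, the decarboxylase of glycine cleavage, had a log2 change of 0.03 ± 0.10 (edgeR adjusted p = 0.832). Of the 6 tested serine- and glycine-using enzymes 1 fell and 0 rose, where 15.9% of all tested genes fell and 15.9% rose. SRR, serine racemase, fell 1.69-fold (edgeR adjusted p = 0.00589). Its level was low, at 3.59 ± 0.55 CPM in the knockdown and 6.003 ± 0.63 CPM in controls (SD, n = 3 each). SMG6 and TSR1 lie across from SRR and are more abundant, so the value of SRR is uncertain. On average SMG6 was at 18.6 CPM in the knockdown and 23.0 CPM in controls. TSR1 rose, with 120 CPM in the knockdown and 76.9 CPM in controls. Of 5 methionine cycle genes 0 were called by edgeR, DESeq2 or limma-voom, and 1 had an unadjusted p under 0.05. By edgeR 31.7% of all tested genes were called in either direction, and at least that share had an unadjusted p under 0.05. With so few genes, 0 of 5 says little about this cycle.

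**Figure D4:**
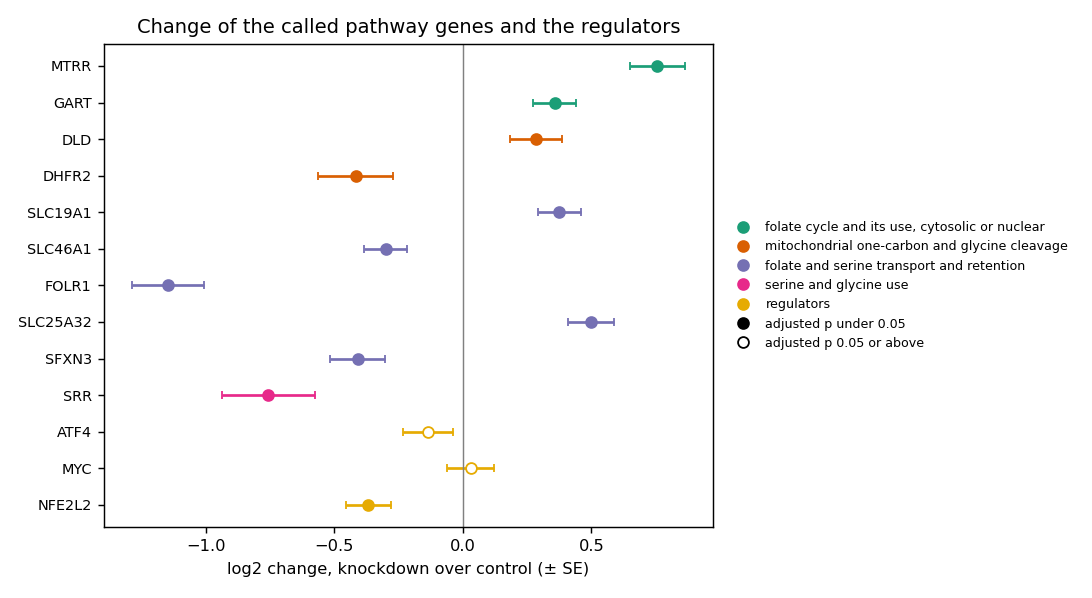
Log2 change (knockdown over control) of the 11 called pathway genes and the regulators ATF4 and MYC, 13 genes in all, coloured by role, with bars of 1 SE; filled points have an edgeR adjusted p under 0.05. FOLR1 at -1.15 and MTRR at 0.76 are the outermost, and ATF4 at -0.14 and MYC at 0.03 were not called.

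The transcripts of the known regulators were measured beside the enzymes. ATF4 was at 836, 1009 and 814 CPM in knockdown libraries 1 to 3, against 952, 1021 and 947 CPM in controls 1 to 3. Knockdown library 2 lay among the controls and the others below them, with a log2 change of -0.14 ± 0.10 (edgeR adjusted p = 0.305). Without knockdown library 2 it was -0.24 (edgeR adjusted p = 0.0285). MYC was at 1232, 1259 and 1118 CPM in knockdown libraries 1 to 3, against 1151, 1103 and 1278 CPM in controls 1 to 3, and the groups overlapped fully (log2 change 0.03 ± 0.09, edgeR adjusted p = 0.826). NFE2L2, which encodes the oxidative stress factor NRF2, fell 1.29-fold (edgeR adjusted p = 0.00589), a call lost without control 2 (0.0523). Transcript levels do not show the amount or activity of these proteins.

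The genes whose pattern over the 6 libraries was most like that of an enzyme were found among 10831 genes of at least 5 CPM, by the root mean square difference of log2 CPM after each gene was centred on its mean. For PSAT1 they were ATG16L2 (0.07), LRRC8D (0.07), TRIB3 (0.07) and FAM184A (0.08). TRIB3, a pseudokinase, was at 72.5, 79.1 and 70.9 CPM in knockdown libraries 1 to 3, against 99.7, 158 and 134 CPM in controls 1 to 3. It thus showed the same order of controls as PSAT1. For MTHFD2 they were SARS1 (0.04), DZIP3 (0.04), TRPM3 (0.05) and BVES (0.06). SARS1, the cytosolic seryl-tRNA synthetase, was at 212, 228 and 203 CPM in knockdown libraries 1 to 3, against 250, 344 and 293 CPM in controls 1 to 3. Its controls were in the order 1, 3, 2 from low to high as well. For SHMT1 they were SLC37A4 (0.01), RBM10 (0.02), ARRDC1 (0.02) and PCCB (0.02). All share the same 6 libraries and their scaling, so likeness is a description. A like order of the controls follows largely from how these genes were picked.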

How the data were processed

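The submitters' processing notes name Trim Galore 0.6.4, STAR 2.7.9a, RSEM and GRCh38.p13; for the RSEM version, annotation and use of strand, the sources used here give nothing. Per the labels, polyadenylated RNA went into the TruSeq Stranded mRNA protocol. The deposited files hold whole numbers for 60708 gene IDs with no header, taken here as RSEM's expected counts rounded before deposit. RSEM shares reads among similar genes, so counts of paralogs are estimates.

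Here 44 pseudoautosomal Y copies were added to their X copies, leaving 60664 genes, of which 42028 have a symbol. Coordinates and lengths are from GENCODE 29 (GRCh38, 1-based). Knockdown was set against control in edgeR 4.0.16 under R 4.3.3, with filterByExpr, TMM factors and a quasi-likelihood F test without covariates over 14673 genes. SE was approximated as the size of the log2 change over the root of F. CPM uses TMM-scaled library sizes, and log2 CPM a prior count of 2. On simulated counts the p-values of unchanged genes were calibrated, but false calls exceeded the nominal rate on average where dispersions varied from gene to gene, so calls near the threshold are weak. Exact permutation tests used scipy 1.17.1. Within groups, every pair of libraries differed beyond counting noise (chi-square over its degrees of freedom 2.81 to 16.5), so none was a second deposit of another, and each entered as 1 sample; this does not show separate cultures.

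All 10 enzymes were named, with the called genes and the 3 regulators of a pathway list. Also named were the 4 genes most like the enzyme of each arm with the smallest adjusted p, whether called or not. SFXN1, TYMS and GLDC were named after their values were seen. A gene of the pathway list is not reported here. The enzymes and lists were chosen with earlier results of these data known. Alternatives were RLE and upper-quartile scaling, other low-count filters, DESeq2 1.42.0, limma-voom (limma 3.58.1), a replicate block, a threshold of 0.01, a prior count of 0.5, the longest transcript as length, and each library left out in turn.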

Additional observations from a re-analysis of the deposited data

How the results depend on the processing

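The number of enzymes called lower was 4 to 6 and of those called higher 0 under every alternative run, with SHMT2 and SHMT1 as the enzymes whose call changed. PHGDH, PSAT1, PSPH and MTHFD2 stayed called with the same sign in every fit. For single enzymes, 109 of 117 comparisons with an alternative kept sign and call. Leaving out 1 library gave 3 to 7 lower and 4 to 10 higher pathway genes, and 2704 to 5114 called genes in all, of 4657 with all libraries; 2459 passed an adjusted p under 0.01. Small values turned sign: upper-quartile scaling gave -0.021 for MTHFD1L and -0.027 for MYC, and leaving out 1 library gave -0.014 to 0.14 for MTHFD2L and -0.016 to 0.094 for MYC. The ratio differences ran from -0.066 to 0.014 for SHMT2 over SHMT1, -0.10 to 0.017 for MTHFD1L over MTHFD1 and -0.14 to 0.081 for MTHFD2L over MTHFD1. Upper-quartile scaling moved the log2 changes over all tested genes by a median of -0.0579. The cause of the shifts with a library left out was not tested.

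Same-numbered libraries did not deviate together (r over genes 0.03, 0.10 and -0.03 for numbers 1 to 3), so the numbers were not taken as pairs. With a replicate block 4 enzymes were lower, with SHMT2 at an adjusted p of 0.0536, and 4742 genes were called in all. The depth of knockdown library 1 limits MTHFD2L and ALDH1L2 most.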
